A study of Mus musculus with 12 samples.

Results

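Vgll2 and the TEAD cofactors of the Hippo pathway were followed across the 4 groups of mouse hearts. The set holds 10 genes, found by their symbols among the 24062 listed in the count table: the Vestigial-like genes Vgll2, Vgll3 and Vgll4, the coactivator genes Yap1 and Wwtr1, the transcription factor genes Tead1, Tead2, Tead3 and Tead4, and the kinase gene Lats2. All 10 were in the table. Poly-A RNA of whole hearts was sequenced as 1 library per mouse, with 3 mice per group. LEMD2 is a protein of the inner nuclear membrane. The 2-month-old hearts came from Lemd2 WT mice and from KI/KI mice, which carried the c.T38>G change on both alleles of Lemd2 in every tissue. The postnatal day 1 (P1) hearts came from Lemd2-floxed mice, whose first Lemd2 exon is flanked by loxP sites, and from cKO mice, which carried the same floxed gene together with Myh6-Cre. Myh6-Cre deletes in cardiomyocytes, so other heart cells of cKO mice kept the gene, and the floxed controls carried no Cre. The 2 ages therefore differ also in the Lemd2 allele of their controls, and age and allele cannot be told apart.

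TEAD proteins bind DNA but need a partner to activate transcription. In the Hippo pathway, MST kinases act upstream of LATS kinases. LATS kinases phosphorylate YAP, encoded by Yap1, and TAZ, encoded by Wwtr1, which keeps both out of the nucleus. When they enter it, YAP and TAZ bind TEAD proteins and switch on genes such as Ctgf, Cyr61 and Ankrd1. Vestigial-like proteins bind the same TEAD partners. VGLL4 competes with YAP and restrains growth, whereas VGLL2 is best known as a TEAD cofactor of skeletal muscle. YAP drives cardiomyocyte proliferation in the fetal and newborn heart.

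Library totals lay between 37063669 and 44789753 counts, and 3 counts, the floor used here, came to between 0.0599 and 0.0965 CPM (counts scaled to TMM-normalized library sizes) in the 12 libraries. Floors and counting intervals cover counting error only. The 8 cardiomyocyte markers summed to between 41430 and 88392 CPM in the 12 hearts, and none was at 0. The targeted gene Lemd2 ranged from 32.0 to 34.8 CPM in WT and from 24.8 to 25.6 in KI/KI, and from 24.3 to 25.4 in floxed and from 6.59 to 13.1 in cKO. KI/KI replicate 5 and cKO replicate 6 stood farthest from the other hearts of their groups in chi-square per degree of freedom, at up to 96.9 and 146. The cKO replicate 4 held 4 counts of 4 Y-linked genes and 612 CPM of Xist, whereas the other 11 hearts held at least 9162 Y-linked counts. Transcripts of the lung gene Scgb1a1 reached 3505 counts in WT replicate 3, 1144 in KI/KI replicate 4, 1026 and 1584 in floxed replicates 1 and 2, and 638, 6 and 116 in cKO replicates 4, 5 and 6. The other 5 hearts held at most 3. Their part in the results was not tested, and the values with each heart left out are given where they change a call.

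The upstream sequences of Vgll2 and Vgll3 are shown because these genes had the largest fitted differences of the set in the adult and the P1 hearts. Both are the 250 bases before the RefSeq transcript start on the plus strand of GRCm38.p6, at chr10:52022252-52022501 for Vgll2 and chr16:65814939-65815188 for Vgll3. Capitals mark the TEAD motif, GGAATG or its reverse complement CATTCC.
Vgll2: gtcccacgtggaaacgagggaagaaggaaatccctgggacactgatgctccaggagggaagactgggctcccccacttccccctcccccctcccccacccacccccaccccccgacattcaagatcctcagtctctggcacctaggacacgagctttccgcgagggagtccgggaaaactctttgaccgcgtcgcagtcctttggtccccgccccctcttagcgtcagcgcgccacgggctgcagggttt
Vgll3: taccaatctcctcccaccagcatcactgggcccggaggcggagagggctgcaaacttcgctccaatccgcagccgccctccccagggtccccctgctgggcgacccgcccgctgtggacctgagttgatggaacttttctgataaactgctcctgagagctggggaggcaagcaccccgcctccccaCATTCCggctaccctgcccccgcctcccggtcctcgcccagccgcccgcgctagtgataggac
The window of Vgll2 held no TEAD motif and 1 E-box (CANNTG, which reads the same on both strands and may overlap the TEAD motif). The window of Vgll3 held the TEAD motif with its first base at -63 from the start, and no E-box. Of 32817 RefSeq mouse windows of this length, 12.6% held the TEAD motif on either strand and 66.2% held an E-box. RefSeq windows were found for 8 of the 10 genes, and 5 of the 8 (Vgll3, Vgll4, Yap1, Wwtr1 and Tead3) had a TEAD motif in at least 1 window. The share of all windows is not a share of genes, since a gene can have several windows. Counted as windows, 7 of 12 held the motif, and the Wwtr1 windows overlap and share the same site.

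Vgll2 was at 4 counts or fewer in every library of 3 groups and higher in the KI/KI hearts, though not past the main test. The gene lies on the plus strand of chromosome 10 of GRCm38 (chr10:52022502-52028471). WT replicates 1, 2 and 3 held 2, 3 and 4 Vgll2 counts, or 0.0643, 0.0916 and 0.109 CPM. KI/KI replicates 4, 5 and 6 held 32, 237 and 78 counts, or 0.953, 5.73 and 2.19 CPM. Every KI/KI heart thus lay above every WT heart, and replicate 5 was the highest and replicate 4 the lowest of the KI/KI hearts. Over the groups, 347 counts against 9 gave a ratio of 35.1 with an exact 95% counting interval from 18.3 to 77.4, which leaves out the spread between mice. Without KI/KI replicate 5 the ratio was 17.8 (9.03 to 39.9). The log2 fold change was 5.04 (SE 1.03, 95% interval 2.61 to 7.47, n = 3 per group), and its adjusted p was 0.193 by edgeR's quasi-likelihood test over 14592 genes. No gene of the whole table passed an adjusted p of 0.05 in this comparison (0%), while 16.2% passed an unadjusted p under 0.05. DESeq2, which called 3.56% of genes, gave Vgll2 an adjusted p of 3.62e-07, and edgeR with all 12 libraries in 1 fit, which called 0.305%, gave 0.00428. Leaving out 1 heart moved the log2 fold change between 4.09 and 5.44 and the edgeR adjusted p between 0.0438 and 0.518, with a call only without KI/KI replicate 4.

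In the P1 hearts Vgll2 was at 0, 1 and 1 counts in floxed and at 1, 1 and 2 in cKO. All 6 values were under the floor, so Vgll2 was not detectable as different at this depth and no fold is given. Vgll1, the remaining Vestigial-like gene, was at 0 in 10 hearts and held 2 counts in KI/KI replicate 5 and 1 in cKO replicate 6. The 5 skeletal myogenic regulators examined, among them Myod1 and Myog, reached at most 3 counts in any adult heart, and Myf6 was at 0 in all 6. The summed level of 9 fast skeletal muscle genes was 3.28 to 3.70 CPM in KI/KI and 3.99 to 12.6 in WT. WT replicates 1, 2 and 3 were at 3.99, 5.53 and 12.6 CPM in this sum, so its upper end rests on replicate 3. The part of skeletal muscle transcripts in the Vgll2 counts was not tested.

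The 5 genes whose levels followed Vgll2 most closely over the 12 libraries were Amot, Ddx58, Rtp4, Aqp8 and Tbx15, with Pearson r of 0.965, 0.963, 0.959, 0.949 and 0.945 on log2 CPM (prior count 2). The values are descriptive, were chosen as the highest among 15728 genes, and rest on 12 points from 4 groups of which only KI/KI had Vgll2 above the floor in every heart. Amot encodes angiomotin, a junction protein that binds YAP. It was at 24.3, 27.8 and 33.4 CPM in WT and at 45.6, 71.2 and 52.4 CPM in KI/KI. Ddx58 encodes the viral RNA sensor RIG-I, and it ranged from 27.4 to 31.2 CPM in WT and from 36.4 to 48.0 in KI/KI. Rtp4, an interferon-induced gene, ranged from 7.49 to 9.87 CPM in WT and from 11.9 to 16.1 in KI/KI. The water channel gene Aqp8 ranged from 0.702 to 1.50 CPM in WT and from 3.66 to 13.4 in KI/KI, and the T-box factor gene Tbx15 from 0.740 to 1.25 and from 1.82 to 5.08.

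Vgll3 was the member that rose most in the P1 cKO hearts. VGLL3 is a TEAD cofactor like VGLL2, and the gene is on the plus strand of chromosome 16 (chr16:65815257-65866368). Floxed replicates 1, 2 and 3 were at 4.36, 5.02 and 4.31 CPM, and cKO replicates 4, 5 and 6 at 22.9, 22.6 and 11.8. The groups did not overlap, and cKO replicate 6 was the lowest of the cKO hearts. Vgll3 was 4.21-fold higher in cKO, a log2 fold change of 2.07 (SE 0.28, 95% interval 1.41 to 2.74, n = 3 per group) with an adjusted p of 0.00816 by edgeR over 15317 genes. With 1 heart left out the log2 fold change stayed between 1.91 and 2.32, and the call was lost only without floxed replicate 1 (2.04, adjusted p = 0.0573). In the adult hearts WT was at 3.67, 3.02 and 5.58 CPM and KI/KI at 5.09, 12.9 and 5.17. These groups overlapped, and KI/KI replicate 5 alone was far above the rest. The log2 fold change was 0.93 (SE 0.44, adjusted p = 0.347 by edgeR), and 0.32 without KI/KI replicate 5. The difference between the 2 models for Vgll3 was 1.15 on the log2 scale (95% interval -0.059 to 2.36, adjusted p = 0.274 by edgeR's interaction test), so the 2 fold changes were not shown to differ.

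**Figure D1:**
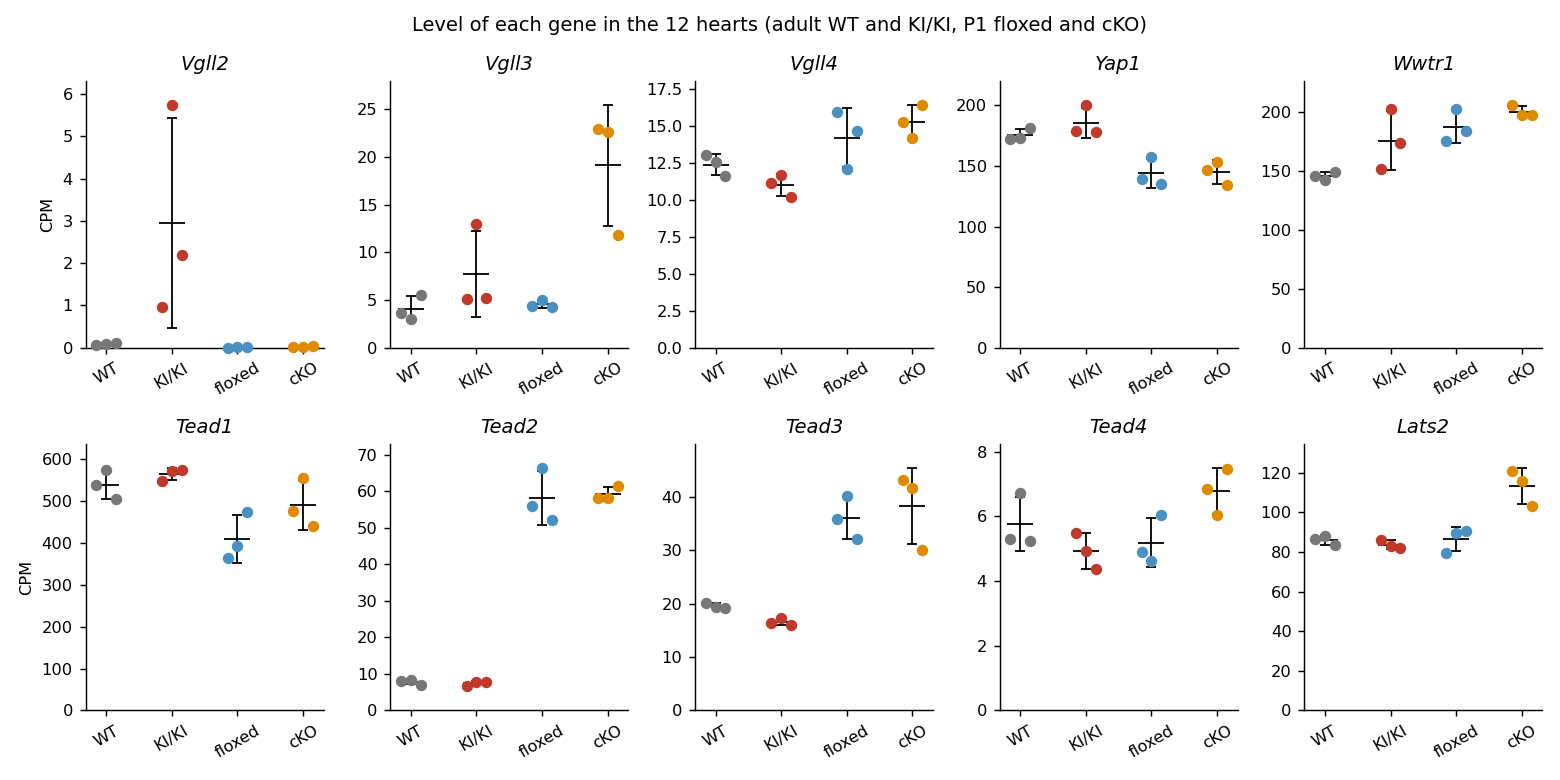
Level of each of the 10 genes in every heart, in CPM on an axis from 0 that differs between panels, with a point per heart and a black line and bar for the mean and SD of 3 hearts. Vgll2 was at 0.953 CPM or more in the 3 KI/KI hearts and at 0.109 or less elsewhere, Vgll3 and Lats2 were higher in the 3 cKO than in the 3 floxed hearts, and Tead2 and Tead3 were higher in the 6 P1 than in the 6 adult hearts.

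Lats2 was the other member that changed in cKO hearts. LATS2 is a kinase that phosphorylates YAP and TAZ, and Lats2 is itself known as a gene that YAP and TEAD can induce. Lats2 is on chromosome 14, minus strand (chr14:57689662-57758388), where 2955 exon bases are shared on the same strand with Gm49361, a gene that is not a row of the table. Floxed hearts were at 79.6, 89.8 and 90.3 CPM and cKO hearts at 121, 116 and 103. All cKO hearts were above all floxed hearts, by 1.31-fold (log2 0.39, SE 0.098, 95% interval 0.16 to 0.62, adjusted p = 0.0385 by edgeR, n = 3 per group). The call rested on the full set of hearts: without 1 heart the adjusted p ran from 0.0122 to 0.161, and it stayed below 0.05 only without cKO replicate 6. In adult hearts Lats2 was at 86.4, 88.3 and 83.4 CPM in WT and at 86.2, 82.8 and 81.7 in KI/KI (log2 -0.038, 95% interval -0.16 to 0.081, adjusted p = 0.721). The difference between models was 0.43 on the log2 scale (95% interval 0.20 to 0.67), with an adjusted p of 0.0589 by edgeR and 0.00517 by DESeq2. Of the edgeR fits with 1 heart left out, only that without cKO replicate 6 passed (adjusted p = 0.0178).

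Of the 9 members tested in the P1 hearts, 2 passed an adjusted p of 0.05, against 16.9% of all genes tested. Both were higher, where 9.32% of all genes were called higher, and 1 of them, Vgll3, changed by more than 2-fold, where 4.64% of genes did. Each of these shares is 1 or 2 genes of 9, near the background. In the adult hearts 0 of 10 members passed with edgeR (0% of genes), and 3 of 10 had an unadjusted p under 0.05 (16.2%). There limma-voom called 0 (0%) and DESeq2 called 1, Vgll2 (3.56%). The hearts did not overlap for 3 of 10 members (21.8% of all genes). Of these, Vgll2 and Wwtr1 were higher in every KI/KI heart (11.4% of all genes) and Tead3 was lower in every one (10.4%). For the difference between models, 0 of 10 passed with edgeR (2.43% of genes), 2 had an unadjusted p under 0.05 (20% of genes), limma-voom called 0 (1.8%) and DESeq2 called 1, Lats2 (8.81%).

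**Figure D2:**
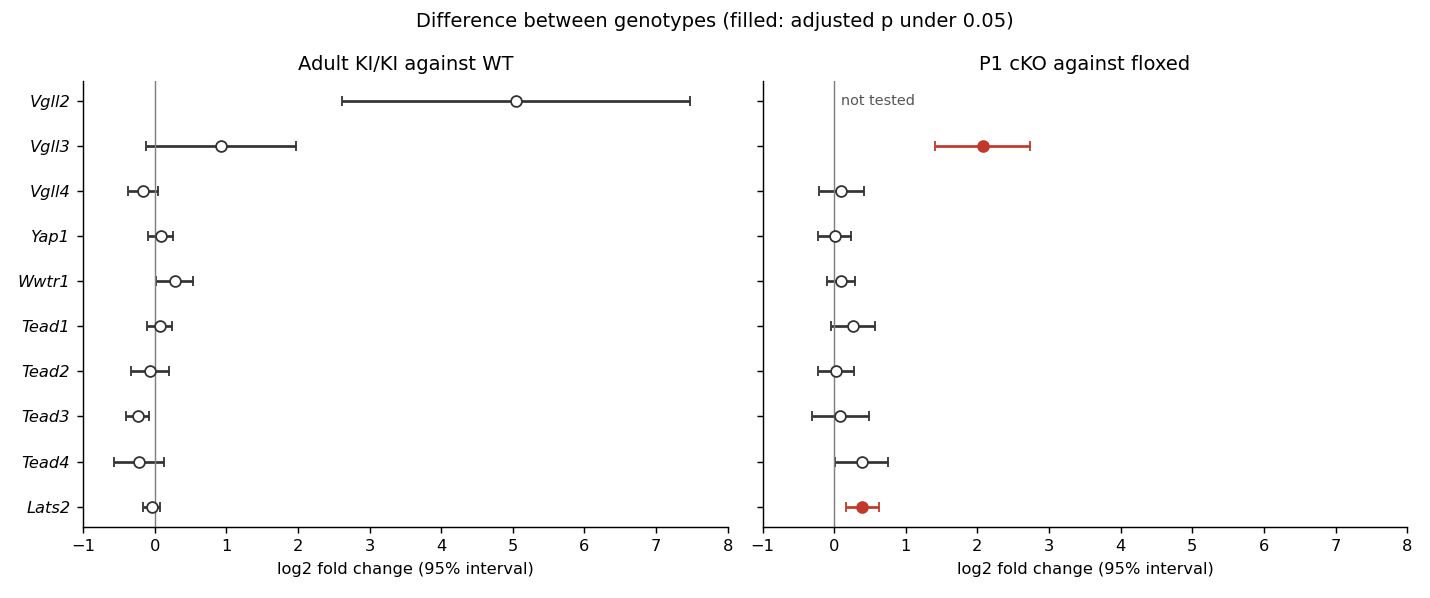
Log2 fold change of each gene with its 95% interval, adult KI/KI against WT on the left and P1 cKO against floxed on the right, from edgeR fits of 6 hearts each, with filled points at an adjusted p under 0.05. Vgll2 had the largest adult value, 5.04, with an open point and a wide interval, and Vgll3 (2.07) and Lats2 (0.39) had the filled points in cKO.

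Neither coactivator gene passed the test in either genotype comparison. Yap1, on the minus strand of chromosome 9 (chr9:7931999-8004596), was at 172, 173 and 181 CPM in WT and 179, 200 and 178 in KI/KI. It was at 139, 158 and 135 CPM in floxed and 147, 154 and 134 in cKO hearts. Its log2 fold change was 0.084 in KI/KI (95% interval -0.087 to 0.25) and 0.0086 in cKO (-0.22 to 0.24). Wwtr1, on the minus strand of chromosome 3 (chr3:57455649-57575910), was at 146, 142 and 149 CPM in WT and at 152, 203 and 174 in KI/KI. All KI/KI hearts were above all WT hearts, with replicate 5 the highest, and the log2 fold change was 0.28 (SE 0.11, adjusted p = 0.291 by edgeR). In the P1 hearts Wwtr1 was at 176, 203 and 185 CPM in floxed and at 206, 198 and 198 in cKO, and the groups overlapped (log2 0.095, 95% interval -0.10 to 0.29).

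Vgll4, which encodes the cofactor that competes with YAP for TEAD, also differed by less than the test could separate. It ranged from 11.6 to 12.99 CPM in WT and from 10.2 to 11.7 in KI/KI (log2 -0.16, adjusted p = 0.388 by edgeR). In P1 hearts it ranged from 12.1 to 15.9 CPM in floxed and from 14.1 to 16.4 in cKO (log2 0.10, adjusted p = 0.613). Vgll4 is on chromosome 6, minus strand (chr6:114860628-114969994).

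None of the 4 TEAD genes passed the test in either genotype comparison with edgeR, DESeq2 or limma-voom. Tead3, on the minus strand of chromosome 17 (chr17:28331671-28350817), was at 20.2, 19.4 and 19.2 CPM in WT and 16.4, 17.3 and 16.0 in KI/KI. Every KI/KI heart was below every WT heart (log2 -0.24, SE 0.066, adjusted p = 0.236). Tead4, on the minus strand of chromosome 6 (chr6:128224288-128300823), was at 4.90, 4.61 and 6.03 CPM in floxed and 6.85, 6.04 and 7.46 in cKO. Every cKO heart was above every floxed heart, the nearest pair at 6.04 and 6.03 CPM (log2 0.39, SE 0.16, adjusted p = 0.133). Tead1, on the plus strand of chromosome 7 (chr7:112679318-112906807), overlapped between genotypes at both ages, with a log2 fold change of 0.070 in KI/KI and 0.26 in cKO (adjusted p = 0.637 and 0.203). Tead2, on the plus strand of the same chromosome (chr7:45215753-45233644), overlapped as well, at -0.063 in KI/KI and 0.027 in cKO. An overlap of 13 exon bases lies between Tead2 and Cd37 on the opposite strand, and 116 exon bases of Yap1 lie opposite Gm20416. Whether the counting used strand is not given in the sources used here.

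Among the members, Tead2 had the largest difference between the control hearts of the 2 ages. The comparison shares its WT and floxed hearts with the genotype comparisons. Of 9 members tested, 5 passed an adjusted p of 0.05 by edgeR (65.2% of all genes), 3 higher at P1 (33.4% of genes) and 2 lower (31.8%). Tead2 was at 8.07, 8.30 and 7.05 CPM in WT and 55.8, 66.3 and 52.0 in floxed hearts, a log2 difference of 2.90 (SE 0.12, adjusted p = 1.04e-06). Tead3 was higher at P1 by 0.89 on the log2 scale (SE 0.097, adjusted p = 1.0e-04) and Wwtr1 by 0.37 (SE 0.074, adjusted p = 0.00263). Yap1 differed by -0.28 (SE 0.078, adjusted p = 0.0132) and Tead1 by -0.39 (SE 0.11, adjusted p = 0.0134), both lower at P1. Without floxed replicate 1 the adjusted p was 0.0522 for Yap1 and 0.0529 for Tead1, and without floxed replicate 2 it was 0.0509 for Tead1. Vgll4 passed only without floxed replicate 2 (log2 0.32, adjusted p = 0.0311). Vgll3, Tead4 and Lats2 did not pass the test.

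Levels of different genes were compared as CPM per kilobase of exon. In WT hearts the order was Tead1 at 39.8 ± 2.5 (SD, n = 3), Wwtr1 at 30.5 ± 0.70, Yap1 at 19.0 ± 0.53, Lats2 at 12.3 ± 0.35, Tead3 at 2.92 ± 0.075 and Vgll4 at 2.29 ± 0.13. Below them came Tead2 at 1.63 ± 0.14 and Tead4 at 1.60 ± 0.23, whose ranges overlapped, then Vgll3 at 0.575 ± 0.19 and Vgll2 at 0.0535 ± 0.014. All other neighbours in the WT order were apart. In KI/KI hearts Vgll2 stood at 1.79 ± 1.5 CPM per kilobase, seventh of the 10 genes by its mean. Its hearts spanned 0.578 to 3.48 CPM per kilobase, a range that covered all hearts of Tead3, Vgll4, Tead2, Tead4 and Vgll3, so its place among them was not resolved. Tead1 and Wwtr1 overlapped at the top. In floxed hearts Wwtr1 was highest at 39.3 ± 2.9 and Tead1 next at 30.2 ± 4.2, with no overlap, and Tead2 at 12.1 ± 1.6 overlapped Lats2 at 12.4 ± 0.87. In cKO hearts Vgll3 stood at 2.69 ± 0.89 CPM per kilobase and overlapped Vgll4 at 2.83 ± 0.21 and Tead4 at 1.89 ± 0.20.

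Within the summed TEAD level per kilobase, Tead1 made up 86.6% ± 0.066 (SD, n = 3) in WT, 88.5% ± 0.43 in KI/KI, 61.3% ± 4.8 in floxed and 64.3% ± 2.5 in cKO hearts. Tead2 made up 3.55% ± 0.13 in WT, 3.30% ± 0.18 in KI/KI, 24.7% ± 3.6 in floxed and 22.2% ± 2.4 in cKO. Both P1 groups thus had a larger Tead2 share than both adult groups, while the floxed and cKO ranges overlapped. Wwtr1 made up 61.6% ± 0.41 of the summed Yap1 and Wwtr1 level in WT, 64.6% ± 2.2 in KI/KI, 71.6% ± 0.80 in floxed and 72.9% ± 1.4 in cKO hearts. These shares are relative, so a rise of 1 gene lowers the share of the others.

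**Figure D3:**
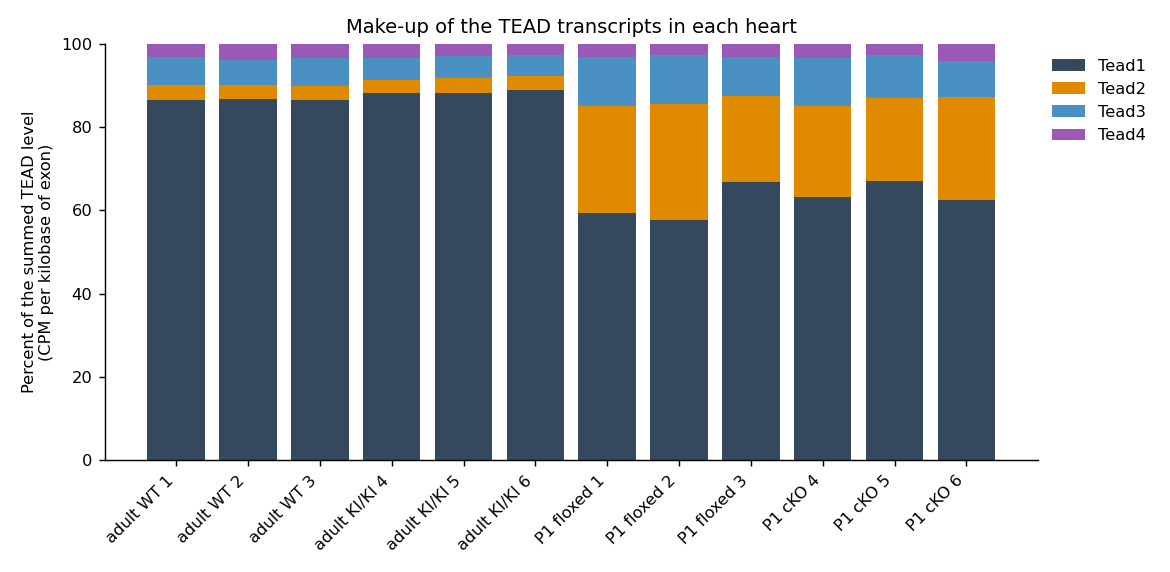
Share of each TEAD gene in the summed TEAD level (CPM per kilobase of exon, in percent) in each of the 12 hearts, 1 bar per heart. Tead1 took 86.6% to 89.0% in the 6 adult hearts and 57.8% to 67.2% in the 6 P1 hearts, where Tead2 took most of the remainder.

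Genes that YAP and TAZ are known to switch on were among those that rose in the cKO hearts. The list holds 21 genes, 20 of them tested, and Foxf2 did not pass the filter on low counts. In cKO 9 of 20 passed an adjusted p of 0.05 by edgeR (16.9% of all genes), 8 higher (9.32%) and 1, Gadd45a, lower (7.57%), and 6 changed by more than 2-fold (4.64%). Their median log2 fold change was 0.49, where that of all genes was -0.0043. Ctgf, which encodes a secreted matricellular protein, was at 91.7, 130 and 114 CPM in floxed and 1713, 1363 and 600 in cKO hearts. Every cKO heart was far above every floxed heart, and cKO replicate 6 was the lowest of the 3 (log2 3.46, SE 0.40, adjusted p = 0.00637). Cyr61, of the same protein family, was at 25.9, 37.4 and 37.4 CPM in floxed and 317, 295 and 162 in cKO, again with replicate 6 lowest (log2 2.95, SE 0.29, adjusted p = 0.00502). Ankrd1, a stress-responsive ankyrin repeat gene of cardiomyocytes, was at 374, 489 and 1084 CPM in floxed and 5312, 4321 and 3477 in cKO (log2 2.76, SE 0.41, adjusted p = 0.00968). Tgfb2, a TGF-beta ligand, was at 54.4, 63.0 and 60.3 CPM in floxed and 187, 187 and 101 in cKO (log2 1.42, SE 0.24, adjusted p = 0.0139). Gadd45a, a growth arrest gene singled out after its values were seen, ranged from 3.90 to 4.38 CPM in floxed and from 2.56 to 3.09 in cKO (log2 -0.56, adjusted p = 0.0482). Its call was lost with limma-voom, without the filter on low counts and with all 12 libraries in 1 fit, where no target was called lower. The same held with 1 heart left out, except without cKO replicate 6. DESeq2 gave Gadd45a an adjusted p of 0.0222.

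The number of targets called in cKO depended on the hearts used. Without floxed replicates 1, 2 and 3 in turn it was 1, 3 and 5, and without cKO replicates 4, 5 and 6 it was 5, 3 and 13. The calls over all genes moved with it, from 160 without floxed replicate 1 to 3463 without cKO replicate 6, against 2587 with all hearts. DESeq2 called 14 of the targets (23.8% of all genes) and limma-voom 7 (15.8%).

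In KI/KI hearts 0 of 20 targets passed with edgeR or limma-voom, 9 had an unadjusted p under 0.05 (16.2% of all genes), and DESeq2 called 6 (3.56% of all genes), of which 3 were higher and 3 lower. The KI/KI hearts were all higher for 5 targets (11.4% of all genes) and all lower for 3 (10.4%). The median log2 fold change was 0.14, where that of all genes was 0.0023. Ankrd1 was at 1955, 2429 and 1896 CPM in WT and 2676, 6448 and 4307 in KI/KI (log2 1.10, SE 0.31, adjusted p = 0.236 by edgeR). Tgfb2 was at 20.4, 20.4 and 21.6 CPM in WT and 29.7, 56.6 and 42.5 in KI/KI (log2 1.05, SE 0.22, adjusted p = 0.194). For both genes the KI/KI hearts stood in the same order as for Vgll2, with replicate 5 highest and replicate 4 lowest. How many of all genes share this order was not tested, and replicate 5 was also the KI/KI heart farthest from the others of its group. Ccdc80, a gene of a secreted matrix protein, was higher in every KI/KI heart (log2 0.60, adjusted p = 0.200), and Igfbp3, which encodes an IGF-binding protein, was lower in every one (log2 -0.40, adjusted p = 0.181). Ctgf was at 262, 263 and 131 CPM in WT and 242, 532 and 415 in KI/KI, and the groups overlapped.

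**Figure D4:**
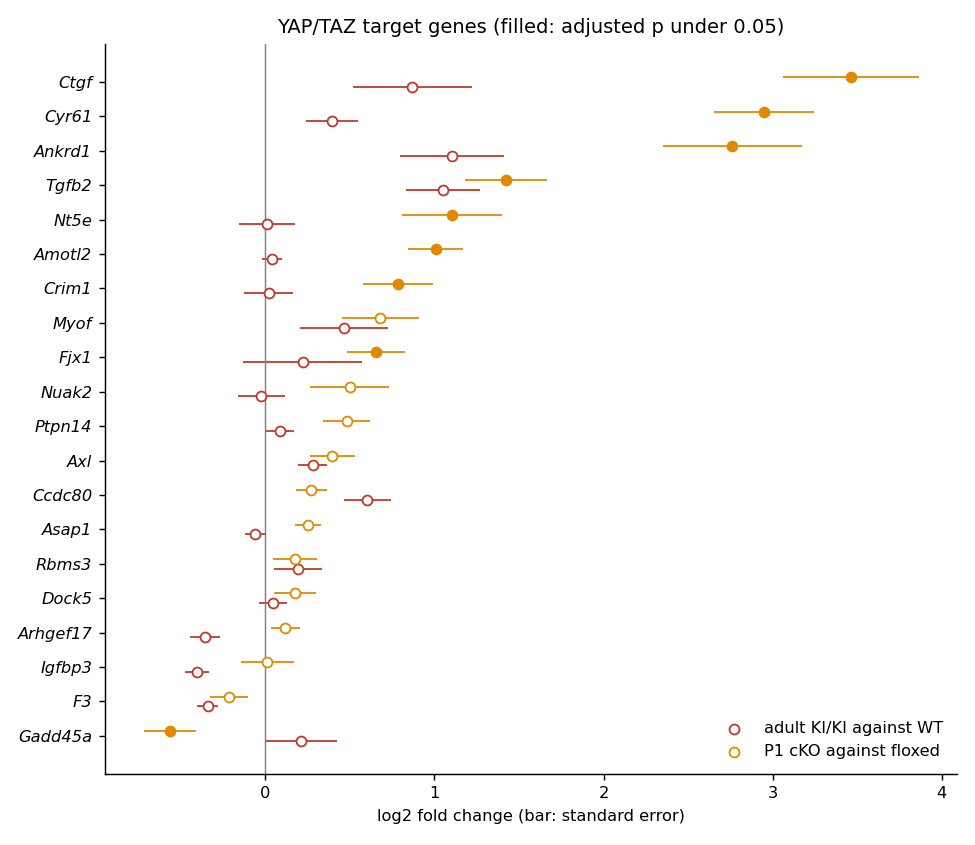
Log2 fold change and standard error of the 20 YAP/TAZ target genes tested, in adult KI/KI against WT and in P1 cKO against floxed hearts (edgeR, 3 hearts per group), with filled points at an adjusted p under 0.05. Ctgf, Cyr61, Ankrd1 and Tgfb2 stand at the top with cKO values from 1.42 to 3.46, and no adult point is filled.

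Among 21 upstream Hippo kinases and regulators, 3 passed in cKO hearts by edgeR (16.9% of all genes). All 3 were higher (9.32% of all genes were called higher), and none changed by more than 2-fold (4.64%). The median log2 fold change of the list was 0.22. Ajuba, whose LIM protein binds LATS kinases, was at 28.3, 24.4 and 29.7 CPM in floxed and 53.0, 55.2 and 38.0 in cKO (log2 0.83, SE 0.17, adjusted p = 0.0207). Wwc2, a KIBRA family scaffold gene, was at 89.0, 84.4 and 97.4 CPM in floxed and 153, 161 and 130 in cKO (log2 0.72, SE 0.11, adjusted p = 0.0101). Taok3, a kinase gene that acts upstream of MST, ranged from 16.5 to 17.7 CPM in floxed and from 23.2 to 24.7 in cKO (log2 0.48, SE 0.085, adjusted p = 0.0152). The count was 0 without floxed replicate 1 or 2, 1 without cKO replicate 5 and 5 without cKO replicate 6. DESeq2 (23.8% of all genes) and the fit of all 12 libraries (26.1%) each called 6, with 5 higher and 1 lower. In KI/KI hearts 0 of 21 passed with edgeR or limma-voom, 4 had an unadjusted p under 0.05 (16.2% of all genes) and DESeq2 called 1 (3.56%). The KI/KI hearts were all higher for 6 of these genes (11.4% of all genes) and all lower for 1 (10.4%), with a median log2 fold change of 0.13. Amot had the largest value among those whose groups did not overlap (log2 0.99, SE 0.19, adjusted p = 0.193 by edgeR, 2.12e-04 by DESeq2). Ajuba, Mob1b and Mob1a, the last 2 encoding coactivators of LATS kinases, followed at 0.28, 0.27 and 0.23 (edgeR adjusted p = 0.363, 0.239 and 0.279).

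Markers of other heart cells moved between the groups as well. In whole-heart RNA, fewer cells of a type and less RNA per cell cannot be told apart. The 6 fibroblast markers summed to 1624 to 1975 CPM in WT, 1954 to 3560 in KI/KI, 3876 to 4417 in floxed and 4537 to 5735 in cKO hearts. KI/KI replicate 5, the adult heart highest in Vgll2, Vgll3 and Wwtr1, was also the highest of the adult hearts in this sum. In contrast, cKO replicate 6, the cKO heart lowest in Vgll3, was the highest of the P1 hearts. The 5 macrophage markers summed to 169 to 276 CPM in WT, 288 to 351 in KI/KI, 59.7 to 71.3 in floxed and 99.0 to 135 in cKO. The cardiomyocyte sum was 79189 to 88392 CPM in WT and 60077 to 78611 in KI/KI, and 47257 to 54510 in floxed and 41430 to 46012 in cKO. The 5 endothelial markers summed to 1019 to 1151 CPM in WT, 1077 to 1254 in KI/KI, 955 to 1039 in floxed and 1113 to 1425 in cKO. The 5 smooth muscle and pericyte markers summed to 657 to 683, 672 to 795, 1314 to 1706 and 1698 to 2873 CPM in the same order. The 4 mesothelial markers summed to 22.1 to 32.0, 19.9 to 31.1, 39.9 to 73.6 and 24.9 to 67.6 CPM. In cKO, where 16.9% of all genes passed by edgeR, 4 of 5 macrophage, 2 of 6 fibroblast and 2 of 5 endothelial markers were called, all higher. The fibroblast markers were mixed: 3 of the 6 had a log2 fold change above 0, with a median of 0.038 and a lowest value of -0.16. Of the 8 cardiomyocyte markers 3 were called, all lower, and 3 had a log2 fold change above 0, up to 0.32. Of the 5 smooth muscle and pericyte markers 2 were called higher and 1 lower. In KI/KI no marker was called by edgeR. There all 6 fibroblast and all 5 macrophage markers had log2 fold changes above 0 (medians 0.50 and 0.55), as did all 5 endothelial markers (0.13). So did 3 of 5 smooth muscle and pericyte and 2 of 4 mesothelial markers. All 8 cardiomyocyte markers were below 0 (median -0.23). The part of these shifts in the results for the TEAD cofactors was not tested.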

How the data were processed

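Heart RNA of 12 mice in 4 groups was analysed. The authors prepared poly-A libraries, sequenced them with 75 cycles, trimmed the reads, aligned them to mm10 with STAR 2.7.2b (version from the submitters' processing notes), used HTSeq for counting and deposited raw counts per gene for 24062 symbols, 3623 at 0 in every library. The strand setting is not given in the sources used here.

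Counts were tested in R 4.3.3 with edgeR 4.0.16 (TMM, filterByExpr, robust quasi-likelihood test, Benjamini-Hochberg adjustment over all tested genes), each comparison on its own 6 libraries, and an interaction over 12. Calls required an adjusted p under 0.05, and a fold above 2 was a second call. SEs came from the log2 fold change and F. Levels are CPM on TMM sizes over 12 libraries, per kilobase of GENCODE M21 exons where genes are compared (94.4% of symbols had a length), which may differ from the annotation counted. Alternatives were DESeq2 1.42.0, limma-voom (limma 3.58.1), RLE size factors, 2 filters, 1 joint fit and each library left out. The scripts were tested on simulated data. Replicates were 1 library per mouse, and no pair agreed within sampling noise.

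The members and lists were chosen with earlier results of these data known, and the lists were written from general knowledge. Named genes are the members, Lemd2, Vgll1, up to 4 genes with the largest change per pathway list among those called in cKO and up to 4 among those whose adult groups did not overlap, and the 5 most like Vgll2. The other genes are marked where named.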

Additional observations from a re-analysis of the deposited data

Results flagged for a closer look

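The genotype effects of 4 pathway genes differed between the models by edgeR's interaction test over 12 libraries. Values are the cKO minus the KI/KI log2 fold change. They were 1 of 21 Hippo regulators and 3 of 20 targets, where 2.43% of all genes passed. Over all genes the test called 383 with every heart, and from 51 without floxed replicate 1 to 924 without cKO replicate 6. Cyr61 differed by 2.56 (SE 0.34, adjusted p = 0.0115), with higher values in all 3 cKO hearts than in all floxed hearts. Ctgf differed by 2.60 (SE 0.56, adjusted p = 0.0409). Amotl2, an angiomotin family gene of the target list, differed by 0.97 (SE 0.18, adjusted p = 0.0287), with 1.01 in cKO and 0.039 in KI/KI. Wwc2 differed by 0.69 (SE 0.12, adjusted p = 0.0243), with 0.72 in cKO and 0.030 in KI/KI. Amotl2 was chosen after its values were seen.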

How the results depend on the processing

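Counts of called genes moved by over 1.5 times in these cases. In KI/KI, DESeq2 called 1 member, 1 Hippo regulator and 6 targets (3.56% of all genes). The 12-library fit called 1 member and 1 Hippo regulator (0.305%). Without 1 heart the members and the targets ranged from 0 to 1, and the calls over all genes from 0 to 56. In cKO, DESeq2 called 6 Hippo regulators and 14 targets (23.8% of all genes), and the 12-library fit 6 Hippo regulators (26.1%). Requiring a fold above 2 left 1 member and 0 Hippo regulators (4.64% of all genes). Without 1 heart the calls ranged from 0 to 2 members, 0 to 5 Hippo regulators and 1 to 13 targets. The calls over all genes then ranged from 160 to 3463. Between ages, a fold above 2 left 1 member. Without 1 heart 3 to 5 members were called there, and 8836 to 10085 of all genes. For the difference between models DESeq2 called 1 member (8.81% of all genes). Without 1 heart 0 to 1 members were called there, and 51 to 924 of all genes. The cause was not tested.

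Values near 0 changed sign without 1 heart: in cKO, Yap1 ranged from -0.039 to 0.072, Vgll4 from -0.012 to 0.19, Tead2 from -0.051 to 0.13 and Tead3 from -0.022 to 0.24 on the log2 scale. Between ages, Vgll3 ranged from -0.034 to 0.44 and Lats2 from -0.026 to 0.076, and for the difference Yap1 from -0.11 to 0.0043. Yap1 in cKO was -2.8e-04 with at least 10 counts in every library, and Lats2 between ages was -0.014 with DESeq2 and -0.011 with RLE size factors. Of the values for single members under all alternatives, 482 kept their direction and side of the threshold, 16 reversed, 9 lost and 6 gained a call. With 1 heart of an arm left out, the test relied on spread pooled over genes.

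The genotype groups share no replicate numbers. WT and floxed share 1 to 3, and a replicate block there called 5 members, as without it, but same-numbered hearts correlated at -0.24, -0.29 and -0.54, so none paired best with its own number. Low counts limit Vgll2 and Vgll1.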

Other observations

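Between the control hearts of the 2 ages, 15 of 21 Hippo kinases and regulators passed an adjusted p of 0.05 by edgeR, 12 of them higher at P1 and 3 lower, with a median log2 difference of 0.25. Of 20 YAP/TAZ target genes, 17 passed, 4 higher at P1 and 13 lower, with a median of -0.46. Ankrd1 was lower at P1 by a log2 difference of -1.68 (SE 0.39, adjusted p = 0.00703) and Ctgf by -0.95 (SE 0.27, adjusted p = 0.0176), whereas Tgfb2 was higher by 1.52 (SE 0.084, adjusted p = 3.4e-06). Age and the floxed allele cannot be told apart, and 65.2% of all genes passed this comparison.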
